A study of Mus musculus with 4 samples.

Results

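The nuclei described here carry RNA of *Drd2*, the dopamine D2 receptor gene, or *Adora2a*, the adenosine A2a receptor gene, together with RNA of the striatal signalling genes *Pde10a* and *Rgs9*, the combination that marks the striatal projection neurons of the indirect pathway. A nucleus was taken when it held at least 1 UMI (unique molecular identifier, 1 counted RNA molecule) of *Gad1* or *Gad2*, which make the transmitter GABA, at least 5 UMIs of *Pde10a* and *Rgs9* together, at least 1 UMI of *Drd2* or *Adora2a*, no UMI of *Drd1* and at most 1 UMI of *Slc17a7*, a glutamate transporter of cortical excitatory neurons. Of 52132 nuclei that passed the quality filter, 383 (0.735%) met the rule and are called *Drd2*-gated nuclei below. The same limits with *Drd1*, the dopamine D1 receptor gene, in place of *Drd2* and *Adora2a* gave 296 *Drd1*-gated nuclei, and leaving out all 3 receptor genes gave 5480 nuclei, of which 4791 held a UMI of none of them and 10 held both kinds.

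RNA was counted in single nuclei of whole brains from untreated female C57/BL6 mice aged 2 months, 2 wild-type (WT 1 and WT 2) and 2 *Csf1r*+/- (HET 1 and HET 2), with 1 library per mouse. *Csf1r*+/- mice carry 1 intact and 1 inactivated copy of the colony stimulating factor 1 receptor gene in every cell, and the receptor is needed by microglia, the macrophages of the brain. The third mouse of each genotype in the study was not analysed here. The libraries held 112226479 UMIs in 16415 nuclei (WT 1), 89727416 in 16301 (WT 2), 89436507 in 9905 (HET 1) and 89799327 in 11369 (HET 2), and 16114, 15247, 9589 and 11182 of those nuclei passed the filter. The striatum was 1 of many regions that gave nuclei, and no dissection marks which nuclei came from it.

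Projection neurons make up most of the neurons of the striatum and release GABA. Those of the direct pathway carry D1 receptors and make the peptide substance P from *Tac1*, and their cAMP production is raised by dopamine. Those of the indirect pathway carry D2 receptors, through which dopamine lowers cAMP, and A2a receptors, through which adenosine raises it, and they make enkephalin from *Penk*. Both kinds share the transcription factors *Foxp1*, *Bcl11b* and *Rarb*, the phosphatase inhibitor *Ppp1r1b* (DARPP-32) and the cAMP-forming enzyme *Adcy5*, while *Pde10a* breaks cAMP and cGMP down and *Rgs9* shortens receptor signals.

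The genotype labels were checked on the targeted gene in the cells that use it. In nuclei with at least 5 UMIs of other microglia markers, *Csf1r* stood at 258 and 200 CPM (UMIs of the gene scaled to the total UMIs of those nuclei) in WT 1 and WT 2, and at 113 and 132 in HET 1 and HET 2, so both *Csf1r*+/- libraries were below both WT libraries. In the *Drd2*-gated nuclei *Csf1r* was close to absent, with 2, 9, 11 and 1 UMIs in WT 1, WT 2, HET 1 and HET 2. The 2 ligands of the receptor were sparse as well: *Csf1* had 2, 6, 1 and 2 UMIs and *Il34*, the ligand made by neurons, 25, 23, 16 and 11. For *Il34* the log2 fold change of HET against WT was -0.32 (SE 0.38), with an unadjusted p of 0.421 in edgeR's quasi-likelihood test.

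The 383 nuclei came from all 4 mice, 100 from WT 1, 145 from WT 2, 82 from HET 1 and 56 from HET 2, and held 1122215, 1108218, 943938 and 583547 UMIs in sum. Their median depth was 9447, 6610, 8710 and 9208 UMIs per nucleus. Between any 2 libraries 33 to 68 cell barcodes were shared, and none of those belonged to a *Drd2*-gated nucleus. One library stood apart: in WT 2 the median mitochondrial share over all nuclei was 0.657% of UMIs, against 0.172% in WT 1, 0.268% in HET 1 and 0.144% in HET 2. In the *Drd2*-gated nuclei of WT 2 the 8 oligodendrocyte markers summed to 605 CPM against 84.7, 174 and 149 in WT 1, HET 1 and HET 2, with *Mbp* the most abundant and none of the 8 at 0. The 12 astrocyte markers summed to 538 against 218, 262 and 216 (*Slc1a2* the most abundant, none at 0), and the 82 cytosolic ribosomal protein genes to 2870 against 1180, 1487 and 1285. The genotype medians of the lists these values bear on are therefore given below with and without WT 2.

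Most *Drd2*-gated nuclei did not group with projection neurons. The 5480 nuclei of the wider gate were clustered without the 8 genes used by the rule, and 1 of the 16 clusters had the shared projection-neuron markers, among them *Ppp1r1b*, *Bcl11b*, *Foxp1*, *Meis2*, *Rarb*, *Gng7*, *Gnal* and *Adcy5*, at 2 times their level in the other clusters or more. This projection-neuron-like cluster held 487 nuclei (92, 229, 82 and 84 from WT 1, WT 2, HET 1 and HET 2), of which 133 were *Drd2*-gated, 112 *Drd1*-gated and 2 held both receptors, while 240 (49.3%) held no UMI of any of the 3 receptor genes. Thus 34.7% of the *Drd2*-gated nuclei lay in it, 30 of 100 in WT 1, 70 of 145 in WT 2, 16 of 82 in HET 1 and 17 of 56 in HET 2. For the remainder the shared markers went against the label of D2 projection neurons, and those are called nuclei outside the cluster.

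**Figure D1:**
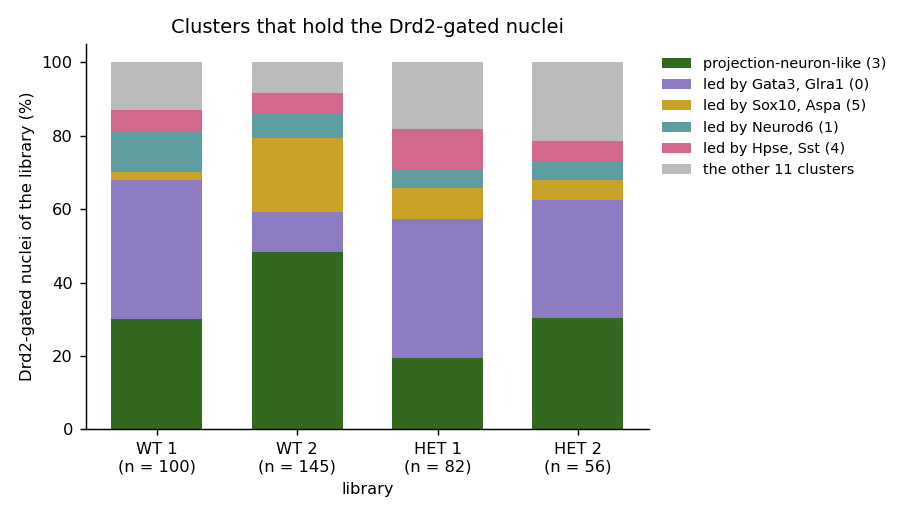
Stacked bars give the share of each library's *Drd2*-gated nuclei (y axis, percent; x axis, library) in the projection-neuron-like cluster and in the other clusters of the wider gate, named by their leading genes with the cluster number in parentheses. The projection-neuron-like cluster holds 133 of the 383 nuclei and the cluster led by *Gata3* and *Glra1* holds 103, and 29 of the 41 nuclei in the cluster led by *Sox10* and *Aspa* came from WT 2.

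Outside it, 103 *Drd2*-gated nuclei lay in a cluster led by *Gata3*, a transcription factor of midbrain and hindbrain GABA neurons, and *Glra1*, a glycine receptor subunit (38, 16, 31 and 18 nuclei from WT 1, WT 2, HET 1 and HET 2). A further 41 lay in a cluster led by the oligodendrocyte genes *Sox10* and *Aspa*, 29 of them from WT 2, and 73.2% of that cluster's nuclei carried high doublet scores. A cluster led by the cortical excitatory gene *Neurod6* held 28, with 52.4% of its nuclei marked as doublets, and one led by *Hpse* and *Sst*, the somatostatin gene, held 26 (6, 8, 9 and 3). Of all 383 nuclei 56 were marked as doublets, and 44 held 1 *Slc17a7* UMI. Doublets were kept in the main fits and removed in an alternative. With them removed the 83 genotype calls described below became 93, with 51 of the 83 among them.

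The number of receptor UMIs separated the nuclei. Exactly 1 receptor UMI was the whole basis of the call in 198 of the 383 nuclei (51.7%), and 11.1% of those lay in the projection-neuron-like cluster. With 2 receptor UMIs the share was 40.3% of 67 nuclei, with 3 it was 61.0% of 41, with 4 it was 66.7% of 18 and with 5 or more it was 79.7% of 59. In the single libraries the share with 1 receptor UMI was 12.1%, 16.7%, 2.17% and 11.8% in WT 1, WT 2, HET 1 and HET 2, with exact (Clopper-Pearson) 95% intervals from 4.99 to 23.3% in WT 1 and from 0.0550 to 11.5% in HET 1, which cover counting error only. With 5 or more it was 76.9%, 88.5%, 57.1% and 100% (13, 26, 14 and 6 nuclei). Each library had its lowest share at 1 UMI.

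**Figure D2:**
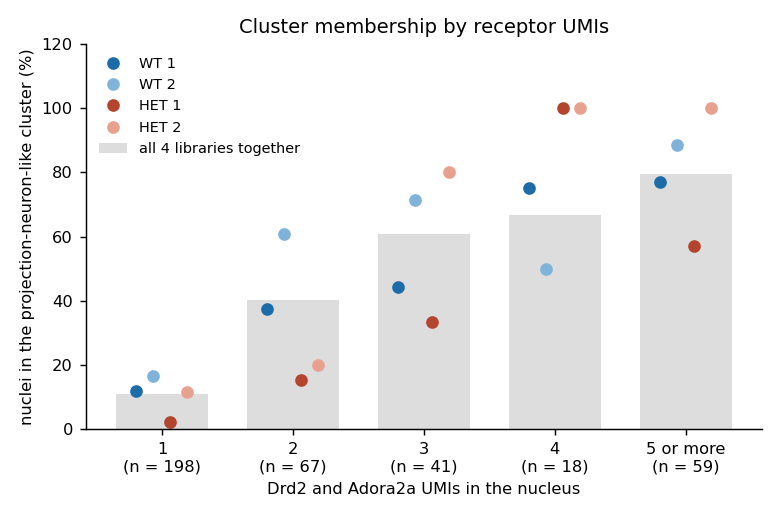
Share of *Drd2*-gated nuclei that lay in the projection-neuron-like cluster (y axis, percent) against the number of *Drd2* and *Adora2a* UMIs in the nucleus (x axis), with points for the libraries and bars for all 4 together. The pooled share goes from 11.1% at 1 UMI to 79.7% at 5 or more.

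Nuclei lay close to the threshold on *Pde10a* and *Rgs9* on both sides. At exactly 5 UMIs there were 34 nuclei, and 48 nuclei met every other limit with 4. Just inside and just outside, *Drd2* stood at 159 and 154 CPM over the pooled nuclei, *Pde10a* at 624 and 510, *Rarb* at 38.8 and 65.5 (10 and 23 UMIs), and *Penk* rested on 2 and 1 UMIs. The levels of *Drd2* and *Pde10a* on both sides are set by the rule.

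*Drd2* itself (chr9:49340627-49408177, plus strand, GRCm38) chose the nuclei, so its level is a description. In the cluster it stood at 410, 463, 510 and 398 CPM in WT 1, WT 2, HET 1 and HET 2, and outside it at 135, 167, 130 and 107. In all other nuclei with *Gad1* or *Gad2* below the *Pde10a* and *Rgs9* limit it stood between 9.37 and 12.8, and in excitatory nuclei at 1.30, 1.93, 1.24 and 0.511. *Adora2a* (chr10:75316877-75334784, plus strand) stood at 70.8, 144, 140 and 147 in the cluster and at 9.37, 22.4, 12.2 and 2.23 outside it. Within each library both receptor genes were higher in the cluster than outside. The selection of at least 1 receptor UMI sets a floor on their sum in every gated nucleus.

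Several genes that the rule did not use followed the cluster, and, since they took part in the clustering, these levels too are a description. *Penk* (chr4:4133531-4138819, minus strand) stood at 198, 447, 419 and 184 CPM in the cluster and at 11.7, 59.7, 63.2 and 11.2 outside it, against 2.64, 3.27, 2.21 and 3.80 in excitatory nuclei. *Ppp1r1b* stood at 44.7, 50.2, 32.9 and 44.2 in the cluster and at 0, 10.4, 6.08 and 0 outside. *Sst* ran the other way, at 3.73, 2.28, 0 and 14.7 in the cluster and at 52.7, 112, 206 and 308 outside. Over the pooled nuclei *Penk* stood at 29.9, 95.2 and 274 CPM with 1, 2 and 3 or more receptor UMIs, and *Rarb* at 151, 392 and 1125. Of the other indirect-pathway markers, *Gpr6*, an orphan receptor, had 14 UMIs in the 383 nuclei, 13 of them in the cluster, and the transcription factor *Sp9* had 31. *Grik3*, a kainate receptor subunit, and *Ptprm*, a receptor phosphatase, were not sparse, at 253, 290, 362 and 191 CPM and at 518, 511, 559 and 405 CPM in the cluster. *Ptprm* did not follow the cluster. After the TMM scaling of the fits below it stood at 531, 515, 546 and 403 CPM in the cluster and at 554, 469, 586 and 534 over all gated nuclei. *Grik3* stood at 260, 292, 353 and 190 in the cluster and at 178, 247, 196 and 127 over all gated nuclei on the same scale.

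Other cell types left traces in both sets. In the cluster the astrocyte markers summed to 157, 495, 518 and 376 CPM in WT 1, WT 2, HET 1 and HET 2 (*Slc1a2* the most abundant, none at 0), lowest in WT 1. The 10 excitatory neuron markers summed to 585, 609, 567 and 633 (*Tle4* the most abundant, *Fezf2* at 0). The 8 endothelial and mural markers summed to 7.45, 4.56, 16.4 and 73.6, with *Flt1* the most abundant and *Cldn5*, *Slco1a4* and *Rgs5* at 0. They were highest in HET 2, where 23.5% of the 17 nuclei were marked as doublets against 10.0%, 2.86% and 0% in WT 1, WT 2 and HET 1, and their part in the genotype values was not tested. In the cluster the oligodendrocyte markers summed to 44.7, 132, 82.2 and 95.7 CPM in WT 1, WT 2, HET 1 and HET 2, the 8 microglia markers to 11.2, 57.0, 49.3 and 29.5 with *C1qc* and *Tmem119* at 0, and the cholinergic interneuron markers to 3.73, 4.56, 8.22 and 0 with *Slc5a7*, *Slc18a3* and *Lhx8* at 0. Cholinergic interneurons also carry D2 receptors, so the markers were looked at in all gated nuclei too, where they summed to 2.67, 14.4, 68.9 and 10.3 with *Slc5a7*, the choline transporter, the most abundant at 27 UMIs. The 5 dopamine neuron markers, genes of another kind of cell that carries D2 receptors, summed to 63.3, 56.8, 49.8 and 27.4 in all gated nuclei (*Slc18a2* the most abundant, none at 0) and to 14.9, 22.8, 0 and 22.1 in the cluster with *Slc6a3* at 0. The 10 markers of other GABA interneurons summed to 1893, 1094, 1640 and 1948 in all gated nuclei, most of it *Adarb2*, and to 1185, 242, 370 and 560 in the cluster, where *Npy* and *Calb2* were at 0.

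**Figure D3:**
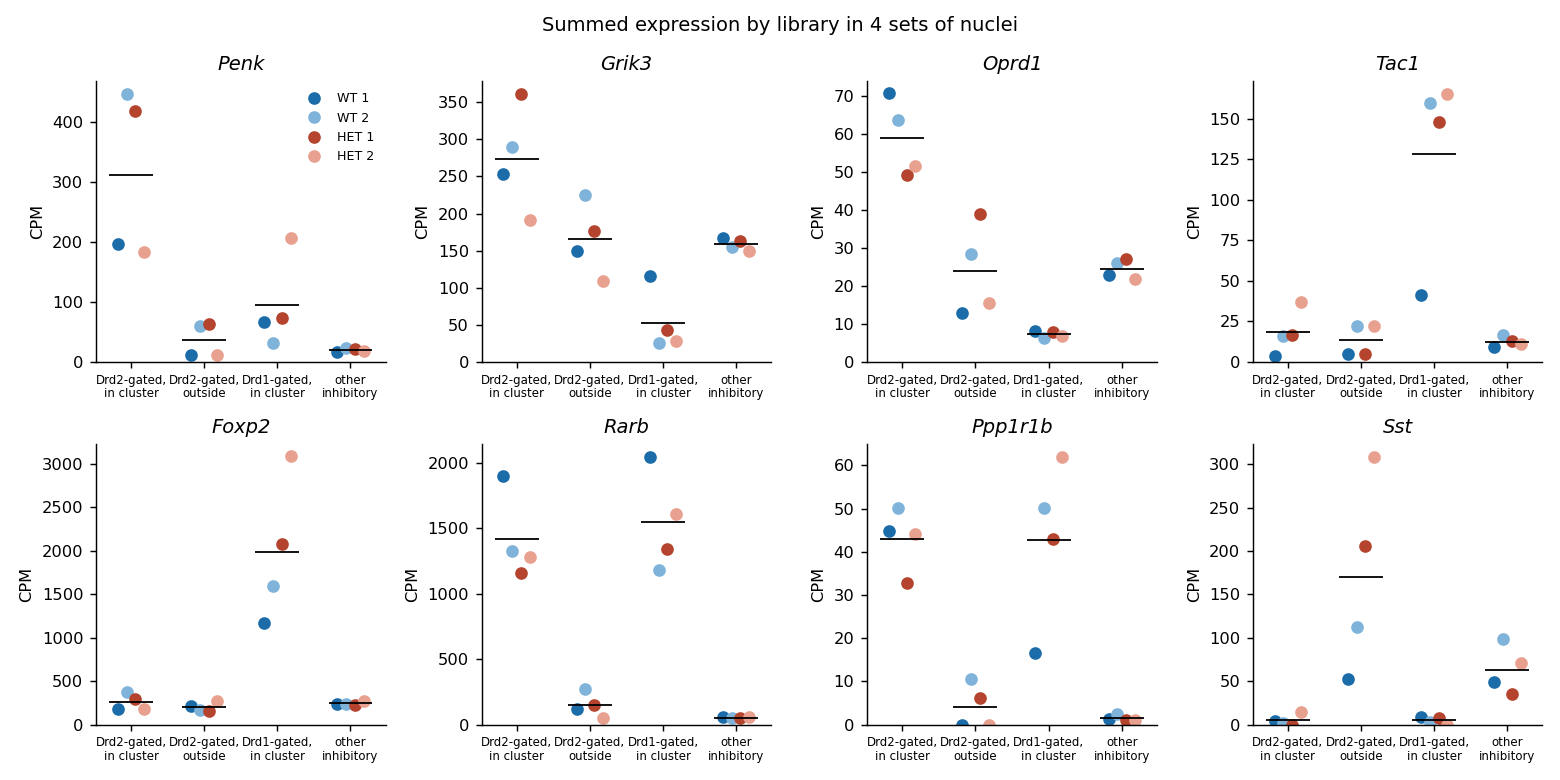
CPM of the summed nuclei (y axis, linear) of 8 genes in each library (points) for *Drd2*-gated nuclei in and outside the projection-neuron-like cluster, *Drd1*-gated nuclei in it and other inhibitory nuclei, with a line at the mean of the 4 libraries. *Penk* in *Drd2*-gated nuclei lies between 184 and 447 in the cluster and between 11.2 and 63.2 outside it, and *Sst* lies the other way.

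*Drd2*-gated nuclei were next compared with *Drd1*-gated nuclei of the same libraries, which asks what else differs between nuclei picked by the receptor of the indirect and of the direct pathway. UMIs were summed per library and type and tested with edgeR's quasi-likelihood test with the library as a block, leaving out the 8 genes of the rule, and a gene was called at a Benjamini-Hochberg adjusted p under 0.05 over all genes tested. Of 8471 genes, 66 were higher and 111 lower in *Drd2*-gated nuclei (2.09% called, 0.779% higher and 1.31% lower, with 10.1% at an unadjusted p under 0.05). Restricted to the cluster, 36 of 7200 genes were higher and 55 lower (1.26% called, 0.5% higher and 0.764% lower, with 8.46% at an unadjusted p under 0.05). Only 33 of the 177 genes called over all gated nuclei were also called in the cluster, which is 18.6% of the first list and 36.3% of the second. Of the 177, 142 were tested in the cluster and 107 of those had the same sign there, although the nuclei of the second fit are part of those of the first. The levels in this comparison and in the genotype fits are CPM after TMM scaling, while those above and all sums over lists are not TMM-scaled.

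Among the genes called over all gated nuclei with at least 20 CPM and a higher level on the *Drd2* side in all 4 libraries, the 10 of largest fold change were *Plpp4*, *Gm12239*, *Gpc5*, *Htr2c*, *Slc17a6*, *Dock2*, *Crhr1*, *Prlr*, *St8sia6* and *AC124490.1*. *Gpc5*, a cell-surface proteoglycan, stood at 554, 272, 442 and 790 CPM in the *Drd2*-gated nuclei of WT 1, WT 2, HET 1 and HET 2 and at 215, 164, 145 and 141 in the *Drd1*-gated nuclei, a log2 fold change of 1.52 (SE 0.18, adjusted p = 4.94e-05). *Gm12239* stood at 50.9, 26.6, 41.5 and 109 against 11.5, 19.5, 18.1 and 6.89 (1.74, SE 0.34, adjusted p = 0.00664). The types did not overlap in either gene. Both are also among the 10 leading genes of the cluster led by *Gata3*, which held 103 *Drd2*-gated and 29 *Drd1*-gated nuclei. *Slc17a6*, the glutamate transporter of subcortical excitatory neurons, was higher as well, at 27.3, 22.2, 41.5 and 39.0 against 11.5, 11.7, 8.34 and 15.5 (1.43, SE 0.28, adjusted p = 0.00726). Leaving out 1 library ended the call of *Gm12239* in 3 of 4 cases (adjusted p = 0.0599 without WT 1, 0.0926 without HET 1 and 0.100 without HET 2) and that of *Slc17a6* without HET 1 (adjusted p = 0.150).

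*Penk* passed over all gated nuclei too, with a log2 fold change of 1.85 (SE 0.34, adjusted p = 0.00465), but was lower on the *Drd2* side in HET 2, at 50.9 against 51.7 CPM. Its fold change was 0.96 without WT 2, and its call was lost without HET 1 (adjusted p = 0.100). *Grik3* stood at 178, 247, 196 and 127 CPM against 149, 98.6, 90.4 and 79.2 (0.88, SE 0.15, adjusted p = 0.00233), higher in each library, and lost its call without HET 1 (adjusted p = 0.0947).

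Among the genes lower on the *Drd2* side, *Mypn*, *Cemip*, *Pde5a* and *Nek7* are leading genes of 1 cluster that held 49 *Drd1*-gated and 5 *Drd2*-gated nuclei. *Cemip*, a protein of hyaluronan breakdown, stood at 45.5, 32.9, 14.5 and 18.7 CPM in *Drd2*-gated nuclei of WT 1, WT 2, HET 1 and HET 2 and at 232, 104, 250 and 229 in *Drd1*-gated nuclei (-2.75, SE 0.24, adjusted p = 1.18e-06). *Tac1* stood at 4.55, 19.5, 6.23 and 25.4 against 23.0, 71.3, 73.7 and 56.8 (-2.10, SE 0.28, adjusted p = 0.000187), lower within every library although the highest *Drd2*-gated value passed the lowest *Drd1*-gated one. The transcription factor *Foxp2* stood at 209, 249, 170 and 244 against 519, 697, 1008 and 902 (-1.81, SE 0.15, adjusted p = 7.71e-07), with no overlap. *Eya4*, *Cntnap3*, *Rbm20* and the long noncoding RNA *6530403H02Rik* completed the 10. For *Mypn*, *Cemip*, *Pde5a* and *Nek7* the 2 gates also differed in cluster makeup. The part of that makeup in the values of the 10 was not tested beyond the fit restricted to 1 cluster, where *Tac1*, *Foxp2* and *Cntnap3* were lower too.

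Inside the projection-neuron-like cluster, where 133 *Drd2*-gated nuclei met 112 *Drd1*-gated ones, several pathway genes passed the test. *Oprd1*, the delta opioid receptor that enkephalin binds, stood at 72.6, 64.4, 48.2 and 51.3 CPM on the *Drd2* side in WT 1, WT 2, HET 1 and HET 2 and at 8.23, 6.23, 7.76 and 6.96 on the *Drd1* side (2.96, SE 0.49, adjusted p = 0.000448), with no overlap. Over all gated nuclei its log2 fold change was -0.03. *Grik3* stood at 260, 292, 353 and 190 against 115, 24.9, 42.7 and 27.8 (2.61, SE 0.30, adjusted p = 1.66e-06), again with no overlap. In other inhibitory nuclei, without TMM scaling, *Oprd1* stood at 21.9 to 27.2 and *Grik3* at 150 to 167 CPM, between the 2 sides of the cluster. *Penk* stood at 203, 451, 410 and 183 against 65.8, 31.1, 73.8 and 209 (1.99, SE 0.35, adjusted p = 0.00103), and in HET 2 the *Drd1* side was the higher one. Without WT 2 it was at 1.29 (adjusted p = 0.0853). *Oprd1*, *Grik3* and *Penk* were 3 of the 5 measured indirect-pathway markers outside the rule. The other 2, *Ptprm* (0.62) and *Plxdc1* (1.20), did not pass, and the median of the 5 was 1.99 beside 0.01 for all genes tested.

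Upstream sequences are shown for *Drd2*, which chose the nuclei, and for *Grik3* and *Oprd1*, which were higher with it in the cluster. Each is the 250 bases before the RefSeq start of the gene on its own strand, written 5′ to 3′ (GRCm38.p6, chr9:49340153-49340402 plus for *Drd2*, chr4:125490446-125490695 plus for *Grik3*, chr4:132144487-132144736 minus for *Oprd1*). Capitals mark the GC box GGGCGG, searched on both strands, so that CCGCCC is its reverse complement.
Drd2: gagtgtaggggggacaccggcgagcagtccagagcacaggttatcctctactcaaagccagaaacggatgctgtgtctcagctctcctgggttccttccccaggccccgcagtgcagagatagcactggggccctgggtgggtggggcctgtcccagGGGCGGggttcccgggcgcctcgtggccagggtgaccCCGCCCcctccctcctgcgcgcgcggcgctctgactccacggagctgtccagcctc
Grik3: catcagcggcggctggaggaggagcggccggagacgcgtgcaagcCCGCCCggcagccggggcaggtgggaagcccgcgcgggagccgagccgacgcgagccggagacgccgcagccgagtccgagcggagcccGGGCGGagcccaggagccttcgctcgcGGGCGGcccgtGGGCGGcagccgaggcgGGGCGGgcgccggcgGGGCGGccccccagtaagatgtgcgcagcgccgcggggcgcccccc
Oprd1: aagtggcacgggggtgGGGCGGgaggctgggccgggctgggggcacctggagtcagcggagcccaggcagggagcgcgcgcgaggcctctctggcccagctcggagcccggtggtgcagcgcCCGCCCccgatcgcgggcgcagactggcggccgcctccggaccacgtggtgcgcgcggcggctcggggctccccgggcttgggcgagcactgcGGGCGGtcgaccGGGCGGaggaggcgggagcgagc
The box occurred 2 times before *Drd2*, 6 times before *Grik3* and 4 times before *Oprd1*, and 32.7% of the 32851 upstream windows of 250 bases in the table hold at least 1. The core TGACG of cAMP response elements, present in 17.8% of windows, and the letters AGGTCA bound by nuclear receptors, present in 14.0%, were in none of the 3 windows on either strand. The windows of *Gpr6* and *Tac1*, not shown, held TGACG 2 times each over both strands and AGGTCA 0 times. These matches describe the letters alone.

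Further genes higher on the *Drd2* side of the cluster included *Unc5d*, a netrin receptor, at 1261, 632, 899 and 1091 CPM against 239, 246, 151 and 167 (2.19, SE 0.20, adjusted p = 4.02e-08), which did not overlap. *Adk*, the kinase that clears adenosine, stood at 512, 285, 265 and 234 against 90.5, 74.7, 77.6 and 55.7 (2.04, SE 0.22, adjusted p = 9.39e-07), and *Chrm3*, a muscarinic receptor, at 558, 579, 209 and 454 against 189, 125, 136 and 48.7 (1.83, SE 0.25, adjusted p = 3.34e-05). Both were separated without overlap. *Gabrg1*, *Fam20c*, *Skap2* and *Zeb2* were also among the 10 leading genes, at 1.81 to 2.27 on the log2 scale, and *Gabrg1* and *Fam20c* lost their call with any 1 library left out, *Skap2* with 3 of the 4 and *Zeb2* with 2. The zinc finger gene *Zfp9* had 19 UMIs in *Drd2*-gated nuclei of the cluster and 0 in the *Drd1*-gated ones, at least 5.54-fold higher against a floor of 3 UMIs over the group, and its call was lost without WT 2 (adjusted p = 0.104) or HET 1 (adjusted p = 0.223). By the ratio of the mean levels of the 2 types, which is how genes patterned most like *Drd2* were chosen, *Myo5c* (9.19), *Aldh3a2* (8.18), *Oprd1* (8.10) and *Gabrg1* (5.80) stood highest over 4 libraries among genes with a UMI on both sides, and *Zfp9* has only its bound, although *Myo5c* and *Aldh3a2* did not pass the test.

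The direct-pathway markers fell on the other side. *Ebf1*, a transcription factor of D1 neurons, stood at 0, 2.30, 8.03 and 29.3 CPM in *Drd2*-gated nuclei of the cluster and at 444, 277, 23.3 and 118 in the *Drd1*-gated ones (-5.18, SE 0.51, adjusted p = 1.22e-07). In HET 1 the 2 values lay closest, at 8.03 and 23.3. Across libraries the sides overlapped, with 29.3 on the *Drd2* side in HET 2 above 23.3 on the *Drd1* side in HET 1. *Tac1* stood at 3.82, 16.1, 16.1 and 36.6 against 41.2, 159, 148 and 167 (-2.94, SE 0.35, adjusted p = 3.00e-06), with no overlap, *Zfp521* at 15.3, 13.8, 0 and 0 against 198, 59.1, 42.7 and 34.8 (-3.06, SE 0.47) and the proton-gated channel gene *Asic4* at -3.50 (SE 0.83), whose call was lost without WT 1 (adjusted p = 0.388), WT 2 (0.146) or HET 1 (0.110). These 4 were lower and *Sfxn1* (-1.15) and *Eya1* (0.03) did not pass, with a median of -3.00 over the 6 measured. *Foxp2* was lower in the cluster too, at 187, 377, 289 and 176 against 1161, 1591, 2065 and 3117 (-2.82, SE 0.21, adjusted p = 1.08e-09), as were *Cntnap3* (-3.28) and *Gfra1*, a receptor for the growth factor GDNF (-4.01). *Gfra1*, *CT010465.1*, *Impg1*, *Npffr2* and *Mdga1*, the rest of the 10, were at 0 in 2 or 3 *Drd2*-gated libraries each, and *Npffr2* and *Mdga1* lost their call in 3 of the 4 fits with 1 library left out.

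**Figure D4:**
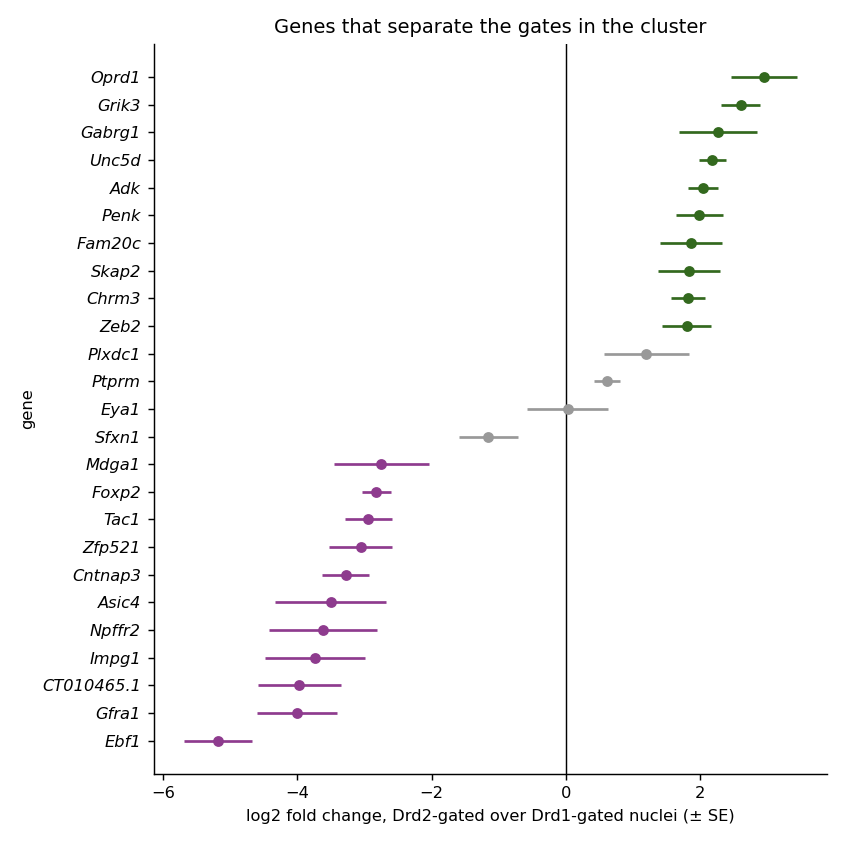
Log2 fold change of *Drd2*-gated over *Drd1*-gated nuclei (x axis) with its SE (bars) for the named genes and pathway markers (y axis) in the projection-neuron-like cluster, with genes that passed in green (higher) or purple (lower) and the others in grey; *Zfp9* is left out because it was at 0 in *Drd1*-gated nuclei. *Oprd1* lies highest at 2.96 and *Ebf1* lowest at -5.18.

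The counts of the receptor and signalling lists stand beside 1.26% of all genes called in the cluster and 2.09% over all gated nuclei. Of 22 measured G-protein-coupled receptor genes in the cluster 4 passed: *Htr2c*, a serotonin receptor (1.61), and *Oprd1* were higher and *Drd3*, the dopamine D3 receptor (-2.15), and the orphan receptor *Gpr149* (-1.29) lower. Over all gated nuclei 4 of 21 passed, of which *Htr2c* (1.46) and *Htr7* (0.98) were higher and *Gpr149* (-1.07) and *Drd3* (-1.36) lower. The glutamate receptor list had *Grik3* higher and *Grik4* lower (-1.14) of 26 in the cluster, the patch list *Sema5b* lower (-1.53) of 4, and the list of 20 markers shared by both types *Foxp1* higher (0.85), with a median of 0.02. Of 37 dopamine, adenosine and cAMP signalling genes *Pde4d*, a cAMP phosphodiesterase, was higher in the cluster (0.71), and of 17 GABA genes *Gabrg1* was higher. *Adarb2*, a marker of other GABA interneurons, was lower on the *Drd2* side of the cluster (-1.97), and its 2 measured interneuron markers had a median of -1.14. No potassium, sodium or calcium channel gene passed in the cluster, while *Kcnj3*, *Kcnh7* and *Kcnc2* were lower on the *Drd2* side over all gated nuclei.

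*Drd2*-gated nuclei were 0.621% (exact 95% interval 0.505 to 0.754), 0.951% (0.803 to 1.12), 0.855% (0.681 to 1.06) and 0.501% (0.379 to 0.650) of all nuclei in WT 1, WT 2, HET 1 and HET 2, so the genotypes overlapped, with a difference of -0.108 percentage points and p = 0.667 in a two-sided exact permutation test. With 2 mice against 2 that test cannot give a p under 0.333. Of inhibitory nuclei (*Gad1* or *Gad2* present, at most 1 *Slc17a7* UMI) they made up 2.82%, 3.69%, 3.59% and 2.74%. Among *Drd1*-gated and *Drd2*-gated nuclei together the *Drd2*-gated share was 65.4%, 55.6%, 55.8% and 47.5%, a difference of -8.84 points (exact permutation p = 0.667). Counted in the projection-neuron-like cluster alone, the share was 66.7% and 58.8% in WT and 37.2% and 44.7% in HET, a difference of -21.8 points in which both HET libraries lay below both WT libraries, and p = 0.333 is the smallest the exact permutation test allows. The genotypes were separated in the same direction, at the same exact permutation p = 0.333, in 4 other settings. Full separation in either direction is reached by a fraction of 0.333 of all label arrangements. The settings also draw on the same nuclei, so they are not independent results. Of all nuclei, those in the cluster were 0.186% and 0.459% in WT against 0.167% and 0.152% in HET, and of inhibitory nuclei 0.845% and 1.78% against 0.701% and 0.831%. Among both gates the *Drd2*-gated share was 62.5% and 63.3% against 56.25% in both HET libraries when nuclei were thinned to 2000 UMIs first (10, 31, 9 and 9 *Drd2*-gated nuclei left), and 65.6% and 58.1% against 57.9% and 46.0% with high doublet scores removed. In the remaining settings the genotypes overlapped: with the stricter gate the share among both gates was 88.9% and 84.1% in WT against 71.8% and 85.7% in HET (exact permutation p = 0.667), and after thinning the exact permutation p was 1.0 for the shares of all nuclei and of inhibitory nuclei. The part of all *Drd2*-gated nuclei that lay in the cluster was 39.1% ± 12.9 in WT and 24.9% ± 7.67 in HET (SD, n = 2 each), a difference of -14.2 points (exact permutation p = 0.667).

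The genotype comparison in the *Drd2*-gated nuclei asked whether neurons that barely carry *Csf1r* RNA differ in *Csf1r*+/- brains. At the study's threshold of an unadjusted p under 0.01, among genes detected in 10% or more of the nuclei of at least 1 genotype, 30 genes were higher and 53 lower in HET of 8830 tested (0.94% called, 0.34% higher and 0.6% lower). No gene had an adjusted p under 0.05 in edgeR's quasi-likelihood test, while 420 genes (4.76%) had an unadjusted p under 0.05. With edgeR's likelihood-ratio test, which the study used at that threshold, 120 genes had an unadjusted p under 0.01 and 9 passed adjustment. With DESeq2 1 gene passed adjustment. The 0 of the quasi-likelihood test became 324 without WT 1, 32 without WT 2, 2 without HET 1 and 0 without HET 2. The genes named below are those of smallest p in each direction whose genotypes did not overlap, and none of them stands as a call after adjustment in the quasi-likelihood test.

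*Sst* had the smallest p. It stood at 42.3 and 68.3 CPM (46 and 76 UMIs) in WT 1 and WT 2 and at 176 and 237 (169 and 140 UMIs) in HET 1 and HET 2, a log2 fold change of 1.89 (SE 0.26, unadjusted p = 9.79e-06, adjusted p = 0.0865). *Sst* is the peptide gene of a class of interneurons and was nearly absent in the projection-neuron-like cluster, where it had 4 UMIs in all, and outside the cluster its log2 fold change was 1.65 (unadjusted p = 5.71e-05). The cluster led by *Hpse* and *Sst* gave 6, 8, 9 and 3 of the *Drd2*-gated nuclei in WT 1, WT 2, HET 1 and HET 2. *Ankfn1* (1.25, SE 0.24), the chloride channel gene *Ano1* (2.18, SE 0.42), *Tacr1*, the substance P receptor (1.43), the neurofilament-like gene *Ina* (1.25), *A930012L18Rik*, *Bpgm* and *Elfn1* followed, all at unadjusted p from 0.000214 to 0.00217. *Ano1* leads a small cluster that gave 0, 1, 5 and 3 *Drd2*-gated nuclei, and *Elfn1* is among the leading genes of the cluster led by *Hpse* and *Sst*.

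On the lower side, *Rarb*, a retinoic acid receptor that striatal projection neurons carry, stood at 560 and 685 CPM (609 and 762 UMIs) in WT and at 274 and 330 (263 and 195 UMIs) in HET (-1.05, SE 0.20, unadjusted p = 0.000237). In the cluster it stood at 1944 and 1339 in WT and at 1138 and 1258 in HET, with a log2 fold change of -0.45 (SE 0.25, unadjusted p = 0.0842). *Sh3rf2* was at -1.75 over all gated nuclei and at -0.79 (unadjusted p = 0.0518) in the cluster, the transcription factor *Meis1* at -1.25 and -0.82 (unadjusted p = 0.0423), and *Adcy5* at -0.90 (unadjusted p = 0.00285) and -0.24 (unadjusted p = 0.375). The long noncoding RNA *6530403H02Rik* had 124 and 149 UMIs in WT and 27 and 27 in HET (-1.79, SE 0.27), and -0.36 (unadjusted p = 0.320) in the cluster. *Gm13974* kept an unadjusted p under 0.01 in the cluster, at -1.69 (unadjusted p = 0.00195) beside -2.68 over all gated nuclei. *Gm19410* (-3.23), *Rnf220* (-1.06) and *Myo5c* (-2.53) were the other 3 of the 8. *Rarb*, *Sh3rf2* and *Gm13974* are among the 10 leading genes of the projection-neuron-like cluster. Its part of the gated nuclei was 30.0% and 48.3% in WT and 19.5% and 30.4% in HET, so the genotypes overlapped.

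**Figure D5:**
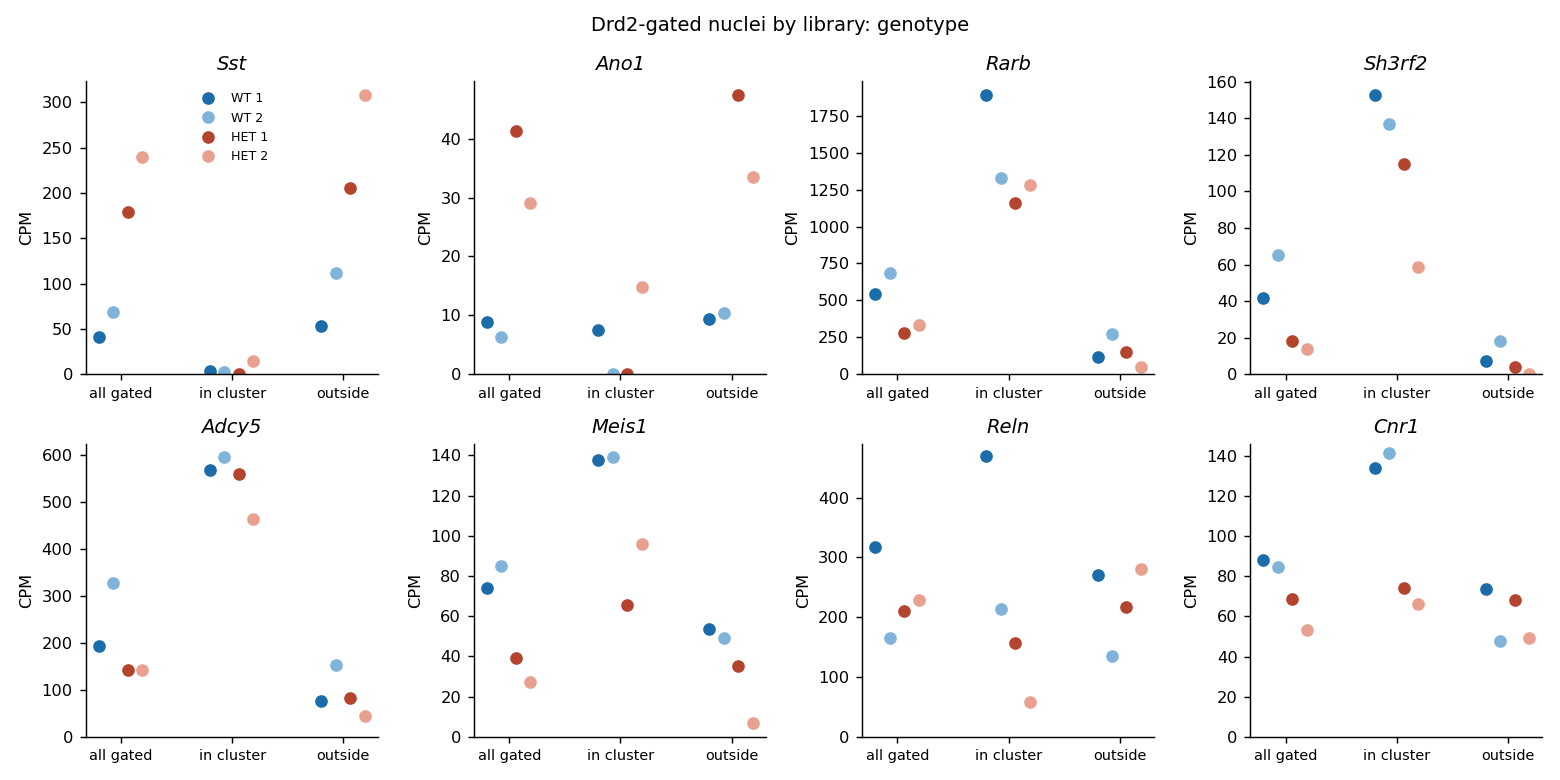
CPM of the summed nuclei without TMM scaling (y axis) of 8 genes in each WT and HET library (points), over all *Drd2*-gated nuclei, in the projection-neuron-like cluster and outside it. *Rarb* lies at 543 and 688 in WT against 279 and 334 in HET over all gated nuclei, and the higher level of each library is in the cluster.

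Restricted to the 133 nuclei in the cluster, 28 genes were higher and 43 lower in HET at an unadjusted p under 0.01, of 7442 tested (0.954% called, 0.376% higher and 0.578% lower), with 0 after adjustment in the quasi-likelihood test and 341 (4.58%) at an unadjusted p under 0.05. Of the 83 genes called over all gated nuclei 4 were among these 71 (4.82% of the first list and 5.63% of the second), although the 133 nuclei are part of the 383. *Alk*, a receptor tyrosine kinase, stood at 211 and 127 CPM in WT and at 517 and 420 in HET (unadjusted p = 7.77e-05). *Htr7*, a serotonin receptor that raises cAMP, had 4, 6, 7 and 14 UMIs in WT 1, WT 2, HET 1 and HET 2 (2.43, SE 0.59). *Klhl32*, *Gpc6*, *Spon1* and *Trpm3* were also higher. So were *Pth2r* and *Tmem248*, but on few UMIs, at 0, 1, 2 and 11 and at 0, 1, 4 and 5 in the same order. *Reln*, a secreted matrix protein, had 126 and 94 UMIs in WT and 19 and 8 in HET (-1.72, SE 0.43, unadjusted p = 0.000560), or 482 and 217 against 153 and 57.9 CPM. *Tmem108* had 34 UMIs in WT and 0 in HET, at least 4.13-fold lower against a floor of 3 UMIs over the group. *Zmiz1*, *Rbm27*, *Edil3*, *Sphkap*, *Cdh10* and *Gm13974* were lower too. The HET side of these values came from 16 and 17 nuclei.

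All 20 shared projection-neuron markers had a negative log2 fold change over all gated nuclei and 2, *Rarb* and *Adcy5*, passed, with a median of -0.72 beside -0.0015 for all genes tested. *Adcy5* was at -0.49 without WT 2, -0.92 without HET 1 and -0.91 without HET 2, and its call did not hold there. *Rarb* was at -0.88 without WT 2. Each genotype fit with 1 library left out has 1 library in that genotype. Its p-values and counts of calls therefore rest on the spread of the other genotype's 2 libraries alone. Without WT 2, 12 of 18 were negative with a median of -0.08, and in the cluster 16 of 20 were negative with a median of -0.20 and none called. Summed, these 20 stood at 8746, 15456, 8238 and 8510 CPM in WT 1, WT 2, HET 1 and HET 2, so the WT value rested on WT 2. With high doublet scores removed 6 of the 20 were called lower, with a median of -0.94, beside 93 calls among 8593 genes tested. Of 71 ribosomal protein genes 66 were negative and *Rps29* passed, with a median of -0.51, and without WT 2 50 of 69 were positive with a median of 0.21. Without WT 1, which leaves WT 2 as the WT library, all 71 ribosomal genes were negative with a median of -0.99, and the 20 shared markers had a median of -1.15. The metallothioneins *Mt1* (11, 55, 11 and 2 UMIs) and *Mt3* (13, 47, 9 and 10 UMIs), metal-binding proteins, were at -1.85 (unadjusted p = 0.0256) and -1.11 (unadjusted p = 0.0831), neither called, and the sum of the 3 metallothioneins was 103 CPM in WT 2 against 23.2, 23.3 and 22.3. Without WT 1 the median of *Mt1* and *Mt3* was -2.15, and without WT 2 the 1 metallothionein tested was at 0.07. In the cluster *Mt1* (2, 29, 2 and 1 UMIs) was at -1.82 (unadjusted p = 0.0678) and *Mt3* at 0.14 (unadjusted p = 0.852). The astrocyte list had *Slc1a2* lower of 5 (median -0.84) and the oligodendrocyte list *Mobp* of 3 (median -1.08), and both lists were highest in WT 2. Without WT 2 the astrocyte median was -0.26 and the oligodendrocyte median turned to 1.31 over 2 genes. Without WT 1 the medians were -1.64 over 5 astrocyte genes and -1.97 over 7 oligodendrocyte genes.

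The counts of the signalling lists stand beside 0.94% of all genes called. Of 38 dopamine, adenosine and cAMP genes 1 passed, *Adcy5*, and the median was -0.26. That median was -0.40 without WT 1, -0.13 without WT 2, -0.34 without HET 1 and -0.19 without HET 2. Of 31 channel genes *Scn3a* and *Cacna2d3* were lower, of 20 G-protein-coupled receptor genes *Grm3* was lower, and of 5 matrix genes *Sv2b* was lower. The channel median, -0.17, was -0.21 without WT 1, -0.18 without WT 2, -0.28 without HET 1 and -0.19 without HET 2. Neither the channel calls nor that of *Sv2b* held in every fit with 1 library left out. *Npas4*, an activity-induced transcription factor, was the 1 of 6 measured immediate early genes that passed, and it was higher. None of 26 glutamate receptor and scaffold genes, 17 GABA genes, 12 zinc transporters, 10 eIF2 stress targets or 9 endocannabinoid genes passed, and their medians lay between -0.07 and 0.08. None of the 5 measured indirect-pathway markers passed either: *Penk* stood at 58.0 and 212 CPM in WT and at 107 and 50.8 in HET (-0.72, SE 0.48, unadjusted p = 0.158), and at -0.18 (SE 0.37) in the cluster. The genotypes overlapped for *Penk* in both sets, and WT 2 had its highest level in each.

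Whether the genotype effect differed between *Drd2*-gated and *Drd1*-gated nuclei was tested with the type by genotype term of edgeR's quasi-likelihood fit. At an adjusted p under 0.05, 9 genes had a positive and 9 a negative term of 8471 tested (0.212% called, 0.106% higher and 0.106% lower, with 6.61% at an unadjusted p under 0.05). *Ebf1*, *Sst*, *Ankfn1*, *Npas3*, *Lingo2* and *Dock10* were among the positive ones and *Penk*, *Rarb*, *Cemip*, *Slc4a4*, *Gm19410* and *6530403H02Rik* among the negative ones. The count was 0 without HET 1 and 2 without HET 2, 48 without WT 1 and 4 in the cluster, where 15 of the 18 were tested and 10 kept their sign. The sign turned in the cluster for *Ankfn1*, *Npas3*, *Lingo2*, *Inpp4b* and *Gm19410*. *Ebf1* lay at 17.3 and 16.9 CPM in WT and 53.0 and 39.0 in HET on the *Drd2* side, and at 134 and 124 against 20.9 and 32.7 on the *Drd1* side.

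The receptor genes themselves could be tested only where they had not chosen the nuclei. In the 5480 nuclei of the wider gate *Drd2*, *Adora2a* and *Drd1* each fell under the 10% detection limit and were not tested, and 20 of 8169 genes had an unadjusted p under 0.01 (0.245% called, 0.0979% higher and 0.147% lower), 1.87% had one under 0.05 and 0 passed adjustment in the quasi-likelihood test. In all 487 nuclei of the projection-neuron-like cluster, whatever their receptor UMIs, *Drd2* had 110, 204, 62 and 54 UMIs in WT 1, WT 2, HET 1 and HET 2, or 172, 151, 97.5 and 101 CPM, and the genotypes did not overlap (-0.69, SE 0.19, unadjusted p = 0.00428, adjusted p = 0.946). The unadjusted p passed 0.01 when WT 1 (0.0141), HET 1 (0.0297) or HET 2 (0.0178) was left out, and the log2 fold change stayed between -0.60 and -0.78. *Adora2a* stood at 31.3 and 46.5 in WT and 26.7 and 37.6 in HET (-0.34, SE 0.34, unadjusted p = 0.346), and at 0.04 without WT 2, and *Drd1* at 34.4 and 52.4 against 66.1 and 48.8 (0.36, SE 0.30, unadjusted p = 0.257), and at 0.76 without WT 2. A *Drd2* UMI was held by 30.4% and 27.9% of the cluster's nuclei in WT 1 and WT 2, and by 19.5% and 19.0% in HET 1 and HET 2. The sum over the cluster alone does not separate fewer *Drd2* nuclei from less *Drd2* RNA per nucleus. The level per nucleus with a *Drd2* UMI was not tested.

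In the same 487 nuclei 32 genes were higher and 25 lower in HET of 6900 tested (0.826% called, 0.464% higher and 0.362% lower), again with 0 after adjustment in the quasi-likelihood test and 337 (4.88%) at an unadjusted p under 0.05. These 57 calls became 148 without WT 1 and 140 without WT 2. *Il1rapl2*, a synaptic adhesion protein, had the smallest p, at 216 and 156 CPM in WT and 56.6 and 41.3 in HET (-1.89, SE 0.25, unadjusted p = 2.12e-05, adjusted p = 0.146). *Cnr1*, the CB1 cannabinoid receptor, stood at 113 and 130 against 72.3 and 46.9 (-1.02, SE 0.24, unadjusted p = 0.00181), and the matrix-list genes *Epha4* (-0.73) and *Sv2b* (-0.88) were lower as well. In the 133 *Drd2*-gated nuclei alone *Cnr1* was at -1.03 (SE 0.39, unadjusted p = 0.0143), *Epha4* at -0.55 and *Sv2b* at -0.51, none of which passed. *Thsd7b* (0.83), *Ptprz1* (0.91), *Sgcd* (0.67), *Fgf13* (0.76) and *Ina* (1.34) were among those higher over the whole cluster.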

How the data were processed

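The deposited values were UMI counts per gene and nucleus from 4 libraries (2 WT, 2 HET), made by the authors with Cell Ranger (5.0.0 per the file headers, mm10 per the labels) from nuclei isolated without detergent, cleared of myelin debris and run on Chromium 3′ v3.1 chemistry. Whether intronic reads were counted is not given in the sources used here. Nuclei with 500 to 50000 UMIs, over 200 genes and under 5% mitochondrial UMIs were kept, as in the study. Counts of gated nuclei were summed per library, since nuclei of 1 mouse are not replicates. Genes with 10 counts or more that were detected in 10% or more of the nuclei of at least 1 group were tested with edgeR 4.0.16 (glmQLFit, TMM) in R 4.3.3, with DESeq2 1.42.0 as an alternative, and p-values were adjusted by Benjamini-Hochberg over all genes tested. Genotype calls used the study's pseudobulk threshold, an unadjusted p under 0.01, and type calls an adjusted p under 0.05. The 8 genes of the rule were left out of fits on nuclei they chose.

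The nuclei of the wider gate were clustered with scanpy 1.11.5 and leidenalg 0.10.2 on 2000 variable genes without those 8 (20 components, resolution 0.5), and doublet scores marked 0.8% of nuclei per 1000 nuclei in each library. Named genes were the 10 largest and 10 smallest log2 fold changes past the adjusted threshold at 20 CPM or more with 1 sign in all 4 libraries, every measured pathway marker, and for genotype the 8 smallest p-values in each direction without overlap; other genes named are list members past the threshold, or were chosen after their values were seen. The members, the 28 gene lists and the tests were chosen with earlier results of these data known, and the fits in, outside and over the projection-neuron-like cluster were added after the data were seen. The fits were tested on simulated counts. Sequences were taken from RefSeq (GRCm38.p6) and gene positions from GENCODE (GRCm38); *Drd2*, *Grik3* and *Oprd1* were matched by symbol.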

Additional observations from a re-analysis of the deposited data

Results flagged for a closer look

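The genotype effect differed between *Drd2*-gated and *Drd1*-gated nuclei for 18 genes, 9 in each direction, at an adjusted p under 0.05 for the type by genotype term in edgeR's quasi-likelihood test (0.212% of 8471 tested, with 560 at an unadjusted p under 0.05). *Ebf1* had the largest difference, 3.75 on the log2 scale (SE 0.40, adjusted p = 3.00e-07). It stood at 17.3, 16.9, 53.0 and 39.0 CPM in *Drd2*-gated nuclei of WT 1, WT 2, HET 1 and HET 2 and at 134, 124, 20.9 and 32.7 in *Drd1*-gated nuclei, so it was higher in HET on the first side and lower on the second. In the projection-neuron-like cluster the term of *Ebf1* was 5.53 (adjusted p = 0.0828). It rested there on *Drd2*-side levels near the floor, at 0, 2.30, 8.03 and 29.3 CPM in WT 1, WT 2, HET 1 and HET 2. These came from 30, 70, 16 and 17 nuclei. The noncoding RNA *6530403H02Rik* differed by -1.69 (adjusted p = 0.00899), with 113, 132, 28.0 and 45.8 CPM on the *Drd2* side against 297, 194, 239 and 198. *Sst* differed by 1.47 (adjusted p = 0.0121), with 41.8, 67.5, 176 and 237 against 74.7, 90.8, 73.7 and 158, and *Ankfn1* by 1.43 (adjusted p = 0.0148).

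*Penk* differed by -2.27 (adjusted p = 0.0199), with 57.3, 210, 107 and 50.9 CPM in *Drd2*-gated nuclei and 21.1, 14.6, 40.3 and 51.7 in *Drd1*-gated ones. *Gm19410* differed by -3.26 (adjusted p = 0.0199) and *Rarb* by -0.97 (adjusted p = 0.0495), with *Rarb* at 554, 677, 273 and 331 on the *Drd2* side and 634, 496, 581 and 487 on the other. The count of 18 became 48 without WT 1, 20 without WT 2, 0 without HET 1 and 2 without HET 2, and in the cluster 4 genes were called, 1 of them shared, the noncoding RNA *Gm28928*. In the cluster 15 of the 18 were tested and 10 kept their sign: the term was -1.85 for *Penk*, -0.52 for *6530403H02Rik* and -0.36 for *Rarb*, it turned to -0.44 for *Ankfn1* and 0.83 for *Gm19410*, and *Sst* was too sparse to be tested. The part of the cluster makeup of the gates in these terms was not tested beyond that fit.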

How the results depend on the processing

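The 83 genotype calls in *Drd2*-gated nuclei became 26 with DESeq2, 32 with nuclei thinned to 2000 UMIs (8 of the 83 among them) and 58 to 572 with 1 library left out (572 without WT 1, 216 without WT 2). With WT and HET paired by replicate number as a block there were 177 calls, 21 of them at an adjusted p under 0.05, and all 83 remained. Deviations of same-numbered samples correlated at -0.020 over 5218 genes. With 2 libraries per genotype the crossed value is the same with its sign turned. It therefore cannot show whether same-numbered samples were handled together, and the labels state no pairing. The 177 type calls became 273 with the likelihood-ratio test, 81 with DESeq2, 37 under a stricter gate, 100 after thinning, 38 without the library block, 91 in the cluster and 56 to 259 with 1 library left out. The 91 type calls in the cluster became 41 with DESeq2 and 55 without WT 2. The 18 genes whose genotype effect differed between types became 4 in the cluster and 0 to 48 with 1 library left out, the 20 genes of the wider gate 12 to 236, and the 57 genes of the whole cluster 42 to 148, or 91 with the replicate block. The *Drd2*-gated share among both gates, -8.84 points, became -21.8 in the cluster. RLE size factors moved none of these counts by over 1.5 times. Of the 177 type calls, 112 of 161 tested kept their sign under the stricter gate and 107 of 142 in the cluster. Signs turned, among others, for *Nek7* (0.48, stricter gate), *Oprd1* (2.10 stricter gate, 2.96 cluster, -0.34 to 0.16 with 1 library left out), *Ptprm* (0.72 stricter gate, 0.031 thinned, 0.62 cluster), *Zfp521* (-0.82 stricter gate, -3.06 cluster, -0.02 to 0.35 with 1 library left out), *Eya1* in the cluster (-0.50 to 0.45), *Adora2a* over the whole cluster (-0.60 to 0.038) and *Mt3* (-1.11 over all gated nuclei, 0.14 in the cluster). The cause was not tested. For 18 of the genes named for a genotype call over all gated nuclei, 183 values kept their sign and side of the threshold and 41 kept only the sign. The cluster held 16 to 70 *Drd2*-gated and 15 to 49 *Drd1*-gated nuclei per library, and the smallest difference this depth could show was not tested.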
